A study of Mus musculus with 12 samples.

Results

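Heat shock and unfolded protein response genes were followed in LSK cells, the lineage-negative fraction of marrow or blood that carries Sca-1 and Kit and in which blood stem cells and early progenitors lie. The set had 39 genes: 12 cytosolic heat shock chaperones, 2 heat shock factors, 3 mitochondrial chaperones, 11 chaperones and degradation factors of the endoplasmic reticulum (ER), 4 ER stress sensors and their factors, and 7 genes of the integrated stress response. Members were found by the gene name that the scanner output gives for probes that are not controls, and 1 probe stood for a gene, the one of highest mean level over the 12 arrays. Of the 39 genes, 38 had a probe under their own name and 36 entered the tests, among 23763 genes tested and 30954 gene names on the array. The levels chose no member, since the set was drawn up by function, but it was drawn up with earlier results of these data known.

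All mice were male DBA2/J mice, and each of 4 groups had 3 arrays. Blood LSK cells came from mice given G-CSF (granulocyte colony-stimulating factor, which mobilizes progenitors over days) for 5 days in 9 injections, from mice given CWHM-823, an inhibitor of the integrin VLA-4, with tGro-b, a truncated agonist of the chemokine receptor CXCR2, and from mice given AMD3100, a CXCR4 antagonist, for 1 hour. The labels give no time for CWHM-823 with tGro-b and no age of the mice. Marrow LSK cells came from mice given PBS. Untreated blood was not among the samples, so treatment and tissue cannot be told apart in any comparison with marrow, and the blood groups differ in agent and in time at once. Cells were sorted by flow cytometry after Kit enrichment, and whether arrays of a group stand for separate mice is not stated, so p-values cover the spread between these samples, which may be technical.

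Cells meet unfolded protein in each compartment with a separate set of genes. In the cytosol, heat shock factor 1 (HSF1) turns on chaperones of the Hsp70, Hsp40 and Hsp90 families. In the ER, the sensors IRE1 (Ern1), ATF6 and PERK (Eif2ak3) are held inactive by the chaperone BiP (Hspa5) until unfolded protein draws it away. IRE1 then splices the RNA of the transcription factor XBP1, ATF6 is cut free to enter the nucleus, and PERK phosphorylates eIF2alpha. Phosphorylated eIF2alpha, which other kinases also produce, slows translation in general, favours that of ATF4 and so starts the integrated stress response. Blood stem cells are known for low protein synthesis and for strong dependence on protein quality control.

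A level is the log2 ratio of a probe's processed signal to the 75th percentile of its array, and levels of different probes are not set against each other. That percentile was 2117 to 2634 in G-CSF blood, 1818 to 1924 in CWHM-823+tGro-b blood, 1084 to 1499 in AMD3100 blood and 1562 to 2357 in PBS marrow, so the AMD3100 arrays were the dimmest. An array had 70.8 to 83.4% of its probes well above background and 0 saturated, and with 3 arrays a group the number of arrays sets the precision. Neutrophil markers set marrow array 3 apart, with a summed level of 32.7 on the linear scale against 2.12 and 2.57 on the other marrow arrays. All 6 LSK markers (Kit, Ly6a, Cd34, Flt3, Gata2 and Meis1) were above background, with summed levels of 30.4 to 39.4 in G-CSF blood, 32.4 to 44.6 in CWHM-823+tGro-b blood, 27.0 to 36.7 in AMD3100 blood and 31.5 to 47.8 in PBS marrow. The arrays with the same replicate number shared a slide, and each slide held 1 array of every group. Values with the slide as a block are given for calls that depend on it.

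The contrast with the most calls was that of G-CSF blood with AMD3100 blood, in which 12 of the 24 tested chaperone and degradation genes of the cytosol, mitochondria and ER rose. In G-CSF blood relative to AMD3100 blood, 13 of the 36 tested members rose and 1 fell (limma, adjusted p under 0.05), where 12.2% of all 23763 genes tested rose and 19.5% fell, 31.7% in all. With the slide as a block, 22 members rose and 2 fell, where 22.3% of all genes rose and 40.3% fell, 62.6% in all. The count of 14 was 6 (Bag3, Calr, Herpud1, Hspa5, Pdia6 and Xbp1) with only the 2 compared groups in the fit, where 16.3% of all genes passed. It was 4 without G-CSF array 1, G-CSF array 3 or AMD3100 array 2, where 5.97%, 9.33% and 10.9% of all genes passed. The blocked count of 24 was 15 without G-CSF array 1, where 10871 of the 23763 genes passed. The median log2 difference of the 36 members was 0.65, and that of all genes tested was -0.39. Quantile normalization moved the median of all genes to -0.10 and that of the members to 0.70, so the members stood 1.04 above the median gene with the 75th percentile scaling and 0.80 above it with quantile normalization. Upward calls were 38.5% of all calls with the percentile scaling and 56.1% with quantile normalization. In a bulk sample, fewer cells of a type and less RNA per cell cannot be told apart.

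Of the 36 members 23 had a mean level above 0, as did 8453 of the 23763 genes tested. Among those 8453 genes, a limit chosen after the data were seen, 16.8% rose and 12.9% fell in G-CSF blood relative to AMD3100 blood, and the median log2 difference was 0.13. Of the 23 members, 11 rose and 1 fell, with a median of 0.66. The 3 arrays of G-CSF blood lay above all 3 of AMD3100 blood for 21 of the 36 members and below them for 2, against 19.4% and 28.5% of all genes tested.

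The other comparisons held few calls. In G-CSF blood relative to PBS marrow, 2 members rose and none fell (limma, adjusted p under 0.05), where 1.75% of all genes passed, 1.14% upward. Of the 36, 13 had an unadjusted p under 0.05. The share of all genes under that limit was not worked out, so such counts, here and below, have no background. With the slide as a block, 13 rose and 1 fell, where 20% of all genes passed, 7.69% upward. Leaving out marrow array 3 gave a count of 6, all upward, in place of 14, where 7.12% of all genes passed. The count was 3 or 9 on leaving out marrow array 1 or 2, where 500 or 1736 of all genes passed. It was 4 or 6 on leaving out G-CSF array 1 or 3, where 524 or 566 did. In CWHM-823+tGro-b blood relative to PBS marrow, 0 members passed, where 0.375% of all genes did; 7 had an unadjusted p under 0.05. The block brought 2 upward calls, where 1.09% of all genes passed, 0.766% upward. The count was 0 without marrow array 1 or 3 or CWHM-823+tGro-b array 1 or 2, where 95, 140, 89 and 104 of all genes passed. It was 1 without CWHM-823+tGro-b array 3 or marrow array 2, where 134 and 128 of all genes passed. It was also 1 without G-CSF array 1, 2 or 3, where 170, 169 and 187 did. In AMD3100 blood relative to PBS marrow, 0 members passed, where 1.41% of all genes did, and 4 had an unadjusted p under 0.05. The block brought 2 downward calls, where 13.1% of all genes passed, 7.59% downward. Without marrow array 3, a setting added after the data were seen, it brought 4 downward calls (Atf4, Ddit3, Herpud1 and Hspa5). There 14.4% of all genes passed, and 1793 of 23763 fell. With all arrays, the second Atf4 probe was 0.29 log2 higher in AMD3100 blood than in PBS marrow. The blocked count was 0 without AMD3100 array 1, marrow array 1 or marrow array 2, where 695, 524 and 336 of all genes passed. It was 1 without AMD3100 array 2 or G-CSF array 1, where 1698 and 2083 of all genes passed.

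Between the blood groups other than the pair already given, no member passed in G-CSF blood relative to CWHM-823+tGro-b blood (limma), where 0.606% of all genes did; 3 had an unadjusted p under 0.05, and 1 rose with the block, where 2.21% of all genes passed, 1.09% upward. In CWHM-823+tGro-b blood relative to AMD3100 blood, 0 members passed, where 0.156% of all genes did; 14 had an unadjusted p under 0.05. With the block 12 rose and 0 fell, where 16.6% of all genes passed, 8.13% upward, and that count ran from 0 to 14 when 1 array was left out. It was 0 without CWHM-823+tGro-b array 1, 1 without CWHM-823+tGro-b array 2 and 1 without AMD3100 array 1, where 26, 151 and 96 of all genes passed. It was 5 without AMD3100 array 2 and 7 without CWHM-823+tGro-b array 3, where 1116 and 1521 of all genes passed. All 3 comparisons with marrow use the same 3 marrow arrays, and comparisons of the blood groups share arrays likewise.

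**Figure D1:**
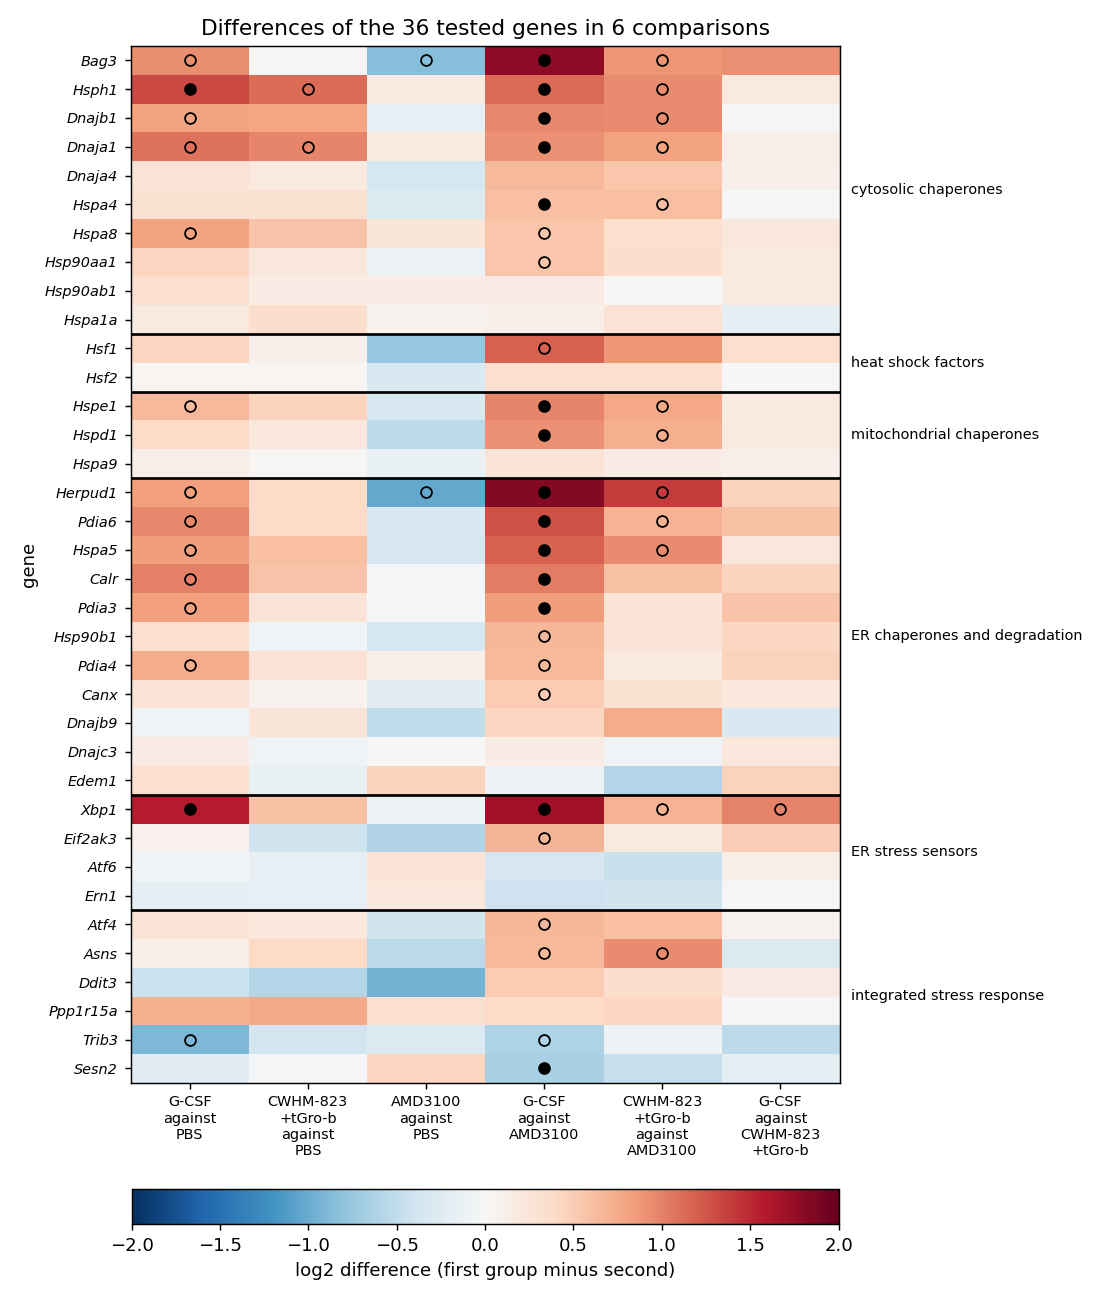
Heat map of log2 differences for the 36 tested members (rows, by branch) in the 6 comparisons (columns), red where the first group is higher and blue where it is lower; a filled dot marks an adjusted p under 0.05 and an open dot one reached only with the slide as a block. The filled dots lie in the G-CSF against AMD3100 column, 14 in all, with 2 more in G-CSF against marrow.

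Of the 10 cytosolic chaperones tested, 5 rose in G-CSF blood relative to AMD3100 blood and 7 with the block, where 12.2% and 22.3% of all genes rose. The median log2 difference was 0.63. It was 0.81 with quantile normalization and 0.37 with the mean of a gene's probes. Bag3, a cochaperone that steers clients of Hsp70 to autophagy, had the largest difference of these 10. Its levels were 0.78, 0.52 and 0.09 in G-CSF blood, 0.09, -0.71 and -0.72 in CWHM-823+tGro-b blood, -1.42, -1.32 and -1.25 in AMD3100 blood and -0.25, -0.57 and -0.61 in PBS marrow. The G-CSF arrays lay above all arrays of AMD3100 blood and marrow, and the AMD3100 arrays lay below all others. Bag3 rose by 1.79 ± 0.28 on the log2 scale in G-CSF blood relative to AMD3100 blood (SE; 3.46-fold; limma, adjusted p = 0.00496). Relative to PBS marrow, it differed by 0.94 ± 0.28 in G-CSF blood (adjusted p = 0.117, and 0.0237 with the block) and by -0.86 ± 0.28 in AMD3100 blood (adjusted p = 0.139, and 0.0336 with the block). Both of these blocked calls held in 6 of 12 refits that leave out 1 array. They were lost without any 1 marrow array, the first also without any 1 G-CSF array and the second without G-CSF array 1 or AMD3100 array 1 or 2. Its probe lies at chr7:135690281-135690340 (mm9, the assembly the scanner output names).

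Hsph1, of the Hsp110 family of exchange factors for Hsp70, had levels of 1.86, 1.35 and 2.03 in G-CSF blood, 1.94, 1.27 and 1.45 in CWHM-823+tGro-b blood, 0.78, 0.13 and 0.91 in AMD3100 blood and 0.38, 0.26 and 0.66 in PBS marrow. All arrays of G-CSF blood and of CWHM-823+tGro-b blood lay above all arrays of AMD3100 blood and marrow. Hsph1 rose 2.20-fold in G-CSF blood relative to AMD3100 blood (1.14 ± 0.29 log2, adjusted p = 0.0194) and 2.48-fold relative to PBS marrow (1.31 ± 0.29, limma, adjusted p = 0.0492). The first of these calls was lost with only the 2 compared groups (0.0505). The second was lost with quantile normalization (0.0552), the authors' table (0.0759), dim probes kept (0.0725), only the 2 compared groups (0.0945) or the mean of its probes (0.0999), and with the block it stood at 0.00568 and passed in all 12 refits. Hsph1 in CWHM-823+tGro-b blood stood 1.12 ± 0.29 above PBS marrow on the log2 scale, with an adjusted p of 0.222, and 0.0302 with the block, a call lost without any 1 marrow or G-CSF array or without CWHM-823+tGro-b array 1 or 2. The second probe of Hsph1 differed by 0.92 between G-CSF blood and AMD3100 blood, beside 1.14 for the one used.

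The Hsp40 proteins Dnajb1 and Dnaja1 deliver unfolded clients to Hsp70. Dnajb1 had levels of 2.99, 2.21 and 2.46 in G-CSF blood, 2.80, 2.60 and 2.21 in CWHM-823+tGro-b blood, 1.78, 1.45 and 1.53 in AMD3100 blood and 2.10, 1.68 and 1.48 in PBS marrow. Its arrays fell into the same 2 pairs of groups as those of Hsph1, with no overlap between the pairs. Dnajb1 rose by 0.97 ± 0.28 log2 (1.95-fold) in G-CSF blood relative to AMD3100 blood (limma, adjusted p = 0.0264). The call was lost with quantile normalization (0.0527), the authors' table (0.0603) and only the 2 compared groups (0.0569). Against PBS marrow Dnajb1 was 0.80 ± 0.28 higher in G-CSF blood (adjusted p = 0.164, and 0.0206 with the block, lost without G-CSF array 1 or 3 or any 1 marrow array). Dnaja1 had levels of 3.49, 2.95 and 3.37 in G-CSF blood, 3.43, 2.85 and 3.21 in CWHM-823+tGro-b blood, 2.65, 2.10 and 2.33 in AMD3100 blood and 2.42, 2.09 and 2.05 in PBS marrow. Again every array of G-CSF blood and CWHM-823+tGro-b blood was higher than every array of the other 2 groups. Dnaja1 rose by 0.91 ± 0.26 log2 in G-CSF blood relative to AMD3100 blood (limma, adjusted p = 0.0249), a call lost with only the 2 compared groups (0.0597) and with the mean of its probes (0.189). It was 1.09 ± 0.26 higher relative to PBS marrow only with the block (adjusted p = 0.0594 without and 0.00400 with it), and that call held in all 12 refits that leave out 1 array (highest adjusted p 0.0312). Dnaja1 in CWHM-823+tGro-b blood stood 0.98 ± 0.26 above PBS marrow (limma, adjusted p = 0.223, and 0.0169 with the block, lost without marrow array 1 or 3 or any 1 CWHM-823+tGro-b array). The probe of Dnaja1 is placed by the scanner output on chromosome 1, while the gene table has the gene on chromosome 4, and the second Dnaja1 probe differed by 0.06 between G-CSF blood and AMD3100 blood.

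Hspa4, another exchange factor of the Hsp110 family, had levels of 2.17, 2.09 and 2.03 in G-CSF blood, 2.18, 2.08 and 2.03 in CWHM-823+tGro-b blood, 1.54, 1.33 and 1.62 in AMD3100 blood and 1.56, 1.90 and 1.91 in PBS marrow. Both G-CSF blood and CWHM-823+tGro-b blood lay above AMD3100 blood and marrow on every array. Hspa4 rose by 0.60 ± 0.21 log2 in G-CSF blood relative to AMD3100 blood (limma, adjusted p = 0.0449). This call held in 1 of 12 refits that leave out 1 array, and was lost with quantile normalization (0.116), normexp correction (0.0839), the authors' table (0.121), only the 2 compared groups (0.100) and the mean of its probes (0.145). Its other probes differed by 0.87 and -0.28. Hspa8, the constitutive Hsc70, had levels of 5.51, 5.32 and 5.50 in G-CSF blood, 5.33, 5.00 and 5.29 in CWHM-823+tGro-b blood, 4.90, 4.57 and 5.18 in AMD3100 blood and 4.72, 4.43 and 4.76 in PBS marrow. G-CSF arrays were above those of AMD3100 blood and marrow, while CWHM-823+tGro-b arrays overlapped those of both other blood groups. The difference of Hspa8 between G-CSF blood and AMD3100 blood was 0.56 ± 0.23 log2 (limma, adjusted p = 0.0759, and 0.00931 with the block). Its 2 other probes, above background on all 12 arrays, differed by only 0.16 and 0.30. Relative to PBS marrow the probe used differed by 0.81 ± 0.23 (0.107, and 0.0124 with the block, lost without G-CSF array 1 or marrow array 1), and the other 2 by 0.45 and 0.70. All 3 probes named Hspa8 are placed on chromosome 5, while the gene table has the gene on chromosome 9.

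Hsp90aa1, the stress-inducible cytosolic Hsp90, had levels of 4.62, 4.42 and 4.21 in G-CSF blood, 4.44, 3.97 and 4.24 in CWHM-823+tGro-b blood, 4.07, 3.71 and 3.81 in AMD3100 blood and 4.02, 3.95 and 3.98 in PBS marrow. G-CSF arrays exceeded all AMD3100 and marrow arrays. Its difference between G-CSF blood and AMD3100 blood was 0.56 ± 0.22 log2 (limma, adjusted p = 0.0694, and 0.0124 with the block). A dim second probe differed by -0.62, and the mean of both probes turned the direction, at -0.03. The cytosolic members that passed in no comparison were Hsp90ab1, the constitutive Hsp90, with levels of 4.95 to 5.73, Dnaja4, with -1.28 to 0.06, and Hspa1a, an inducible Hsp70. The dimmer second Dnaja4 probe, above background on 11 arrays, differed by -1.15 between G-CSF blood and AMD3100 blood. The Dnaja4 probe used differed by 0.65. Hspa1a was dim, with levels of -4.02 to -1.96, and was above background on 10 of 12 arrays; its probe lists transcripts of both Hspa1a and Hspa1b, and no probe carries the name Hspa1b. Hspb1, the small heat shock protein Hsp27, was above background on 0 of 12 arrays and was not tested.

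Hsf1, the factor that drives this branch, was dim, with levels of -1.69, -2.07 and -1.05 in G-CSF blood, -1.91, -2.34 and -1.54 in CWHM-823+tGro-b blood, -3.76, -2.94 and -1.66 in AMD3100 blood and -1.95, -2.20 and -1.95 in PBS marrow. Groups overlapped, and AMD3100 blood held the lowest value and was above background on 2 of 3 arrays. The value of -3.76 on AMD3100 array 1 lay under the lowest signal well above background on that array (-3.27), so no difference between G-CSF blood and AMD3100 blood is given. Hsf1 is nonetheless 1 of the 22 members counted as higher there with the block. Hsf2, a related factor, ranged from -1.02 to 0.06 and passed in no comparison. Heat shock factors act through their activity as well as their RNA, and the arrays measured RNA only.

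HSF1 binds as a trimer to inverted repeats of GAA. The letters GAA, TTC and GAA, each 2 bases from the next, were searched on both strands of RefSeq promoter windows in GRCm38.p6, from 250 bases before to 50 after a gene's start. They stood in 0.603% of 32851 windows and in those of 3 of the 33 members with a window, Hspd1, Hspe1 and Hsph1. Hspd1 and Hspe1 lie head to head, so 1 stretch serves both. The sequences below show those matches in capitals, at chr1:55088039-55088096 on the plus strand for Hspe1 and chr5:149636288-149636300 on the minus strand for Hsph1, where 2 overlapping matches form the capitals of Hspe1. A match describes letters and is no measure of binding.

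Hspe1: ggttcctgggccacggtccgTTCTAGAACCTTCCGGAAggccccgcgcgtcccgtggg
Hsph1: TTCTGGAAAGTTC

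**Figure D2:**
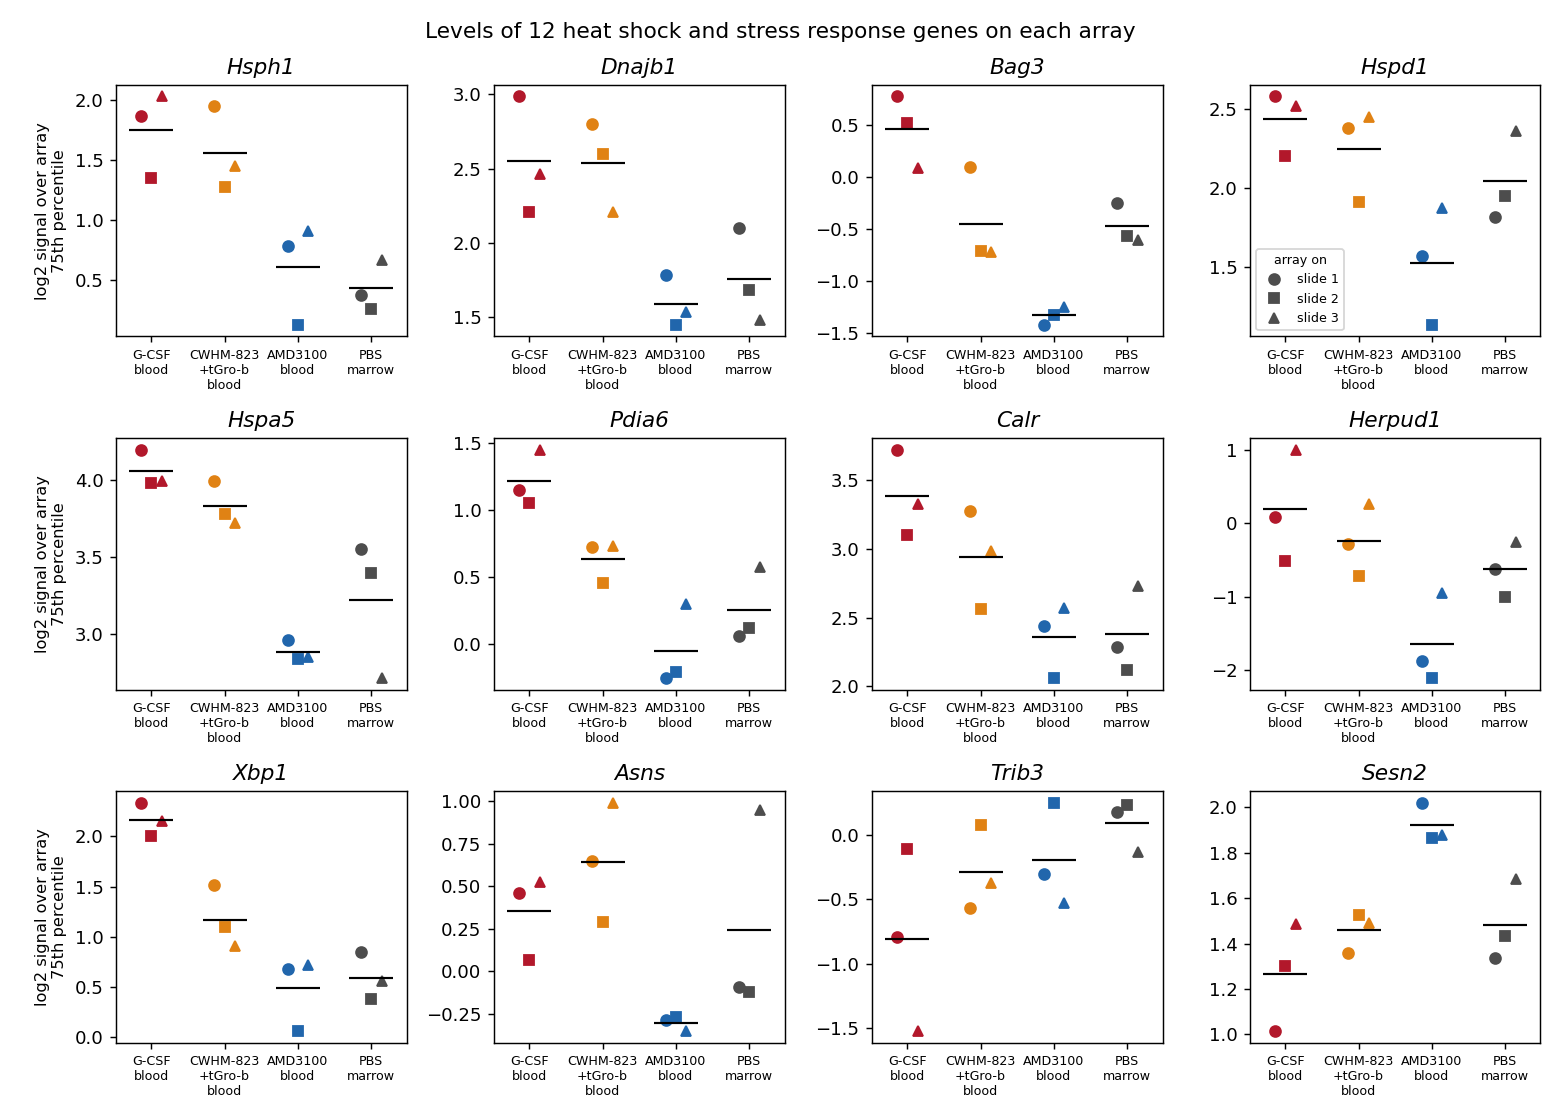
Levels (log2 of processed signal over the 75th percentile of the array) of 12 members in G-CSF blood, CWHM-823+tGro-b blood, AMD3100 blood and PBS marrow, from left to right, with 1 symbol per slide and a line at the mean of 3 arrays. For Hsph1 and Dnajb1 both groups on the left lie above both on the right, and Sesn2 is highest in AMD3100 blood.

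Hspd1 (Hsp60) and Hspe1 (Hsp10) form the folding chamber of the mitochondrial matrix, and both rose in G-CSF blood relative to AMD3100 blood. Hspd1 had levels of 2.58, 2.20 and 2.52 in G-CSF blood, 2.38, 1.91 and 2.45 in CWHM-823+tGro-b blood, 1.57, 1.14 and 1.87 in AMD3100 blood and 1.81, 1.95 and 2.36 in PBS marrow. AMD3100 arrays lay below those of both other blood groups, while marrow overlapped all 3. Hspd1 rose 1.88-fold in G-CSF blood relative to AMD3100 blood (0.91 ± 0.27 log2, limma, adjusted p = 0.0298). Hspe1 had levels of 1.88, 1.59 and 2.24 in G-CSF blood, 1.76, 1.32 and 2.04 in CWHM-823+tGro-b blood, 0.54, 0.84 and 1.42 in AMD3100 blood and 1.06, 1.00 and 1.72 in PBS marrow. Only G-CSF and AMD3100 blood were apart on every array. Hspe1 rose 1.96-fold (0.97 ± 0.32 log2, limma, adjusted p = 0.0398), and its other probes differed by 1.15 and 1.07. This call was lost with quantile normalization (0.0572), the authors' table (0.0647), only the 2 compared groups (0.0679) and the mean of its probes (0.0502), and that of Hspd1 with only the 2 compared groups (0.0629). Relative to PBS marrow, Hspe1 was 0.65 ± 0.32 higher in G-CSF blood (adjusted p = 0.275, and 0.0363 with the block, lost without any 1 G-CSF or marrow array or CWHM-823+tGro-b array 2). The probes used are placed on chromosome 12 for Hspd1 and chromosome 5 for Hspe1, while the gene table has both genes on chromosome 1. The other Hspe1 probes are placed on chromosome 18 and at chr1:28995108-28995167 (mm9). The promoter stretch of Hspe1 shown above lies at chr1:55088039-55088096 in GRCm38.p6, another assembly. Hspa9 (mortalin), the matrix Hsp70, ranged from 1.58 to 2.25 and passed in no comparison. The median of the 3 mitochondrial chaperones was 0.91, and 0.76 with quantile normalization.

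Of the 11 ER chaperones and degradation factors, 5 rose in G-CSF blood relative to AMD3100 blood and 8 with the block, where 12.2% and 22.3% of all genes rose. The median log2 difference was 0.66 (0.54 with quantile normalization). Hspa5 encodes BiP, the Hsp70 of the ER that also holds the stress sensors inactive. Its levels were 4.19, 3.98 and 3.99 in G-CSF blood, 3.99, 3.78 and 3.72 in CWHM-823+tGro-b blood, 2.96, 2.84 and 2.85 in AMD3100 blood and 3.55, 3.40 and 2.71 in PBS marrow. Arrays of G-CSF and CWHM-823+tGro-b blood all lay above those of AMD3100 blood and marrow, and marrow array 3 was lower than the other marrow arrays. Hspa5 rose by 1.17 ± 0.25 log2, or 2.25-fold, in G-CSF blood relative to AMD3100 blood (limma, adjusted p = 0.0110). Relative to PBS marrow it differed by 0.83 ± 0.25 in G-CSF blood (adjusted p = 0.116, and 0.0217 with the block). That call was lost without G-CSF array 1 or 3 or marrow array 1 or 3, and without marrow array 3 the blocked value was 0.61, with an adjusted p of 0.0514. Its probe lies at chr2:34631913-34631972 (mm9).

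Herpud1, a part of the machinery that withdraws misfolded protein from the ER for degradation, had levels of 0.09, -0.52 and 1.01 in G-CSF blood, -0.28, -0.71 and 0.26 in CWHM-823+tGro-b blood, -1.87, -2.11 and -0.95 in AMD3100 blood and -0.62, -1.0 and -0.25 in PBS marrow. AMD3100 arrays were lower than every array of the other blood groups and, but for AMD3100 array 3, lower than every marrow array. Herpud1 rose by 1.84 ± 0.43 log2 in G-CSF blood relative to AMD3100 blood (3.57-fold, limma, adjusted p = 0.0147). Against PBS marrow, the value was -1.02 ± 0.43 in AMD3100 blood (adjusted p = 0.235, and 0.0126 with the block), and the blocked call was lost without AMD3100 array 1 or marrow array 1 or 2. In G-CSF blood it was 0.82 ± 0.43 higher than in PBS marrow (adjusted p = 0.296, and 0.0217 with the block, lost without G-CSF array 1 or 3 or marrow array 1 or 3). Its probe lies at chr8:96919117-96919176 (mm9).

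The protein disulfide isomerases form and rearrange disulfide bonds. Pdia6 had levels of 1.15, 1.05 and 1.45 in G-CSF blood, 0.72, 0.46 and 0.73 in CWHM-823+tGro-b blood, -0.25, -0.21 and 0.30 in AMD3100 blood and 0.06, 0.12 and 0.57 in PBS marrow. G-CSF arrays lay above all other arrays, and AMD3100 arrays below those of CWHM-823+tGro-b blood. Pdia6 rose by 1.27 ± 0.25 log2 (2.41-fold) in G-CSF blood relative to AMD3100 blood (limma, adjusted p = 0.00916), and by 0.96 ± 0.25 relative to PBS marrow only with the block (adjusted p = 0.0768 without and 0.00871 with it, and 0.0511 without marrow array 1). The call in G-CSF blood relative to AMD3100 blood was lost with the mean of its probes, since the second and dimmer one differed by 0.08. The probe used lies at chr12:17291070-17291129 (mm9).

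Pdia3, the isomerase that works with the lectin chaperones, had levels of 4.02, 3.80 and 4.07 in G-CSF blood, 3.85, 3.36 and 2.99 in CWHM-823+tGro-b blood, 3.19, 2.86 and 3.31 in AMD3100 blood and 3.18, 2.88 and 3.38 in PBS marrow. G-CSF blood exceeded AMD3100 blood and marrow on every array, while CWHM-823+tGro-b blood spread across the others. Pdia3 rose by 0.84 ± 0.27 log2 in G-CSF blood relative to AMD3100 blood (limma, adjusted p = 0.0356, and 0.0591 with only the 2 compared groups). Pdia4 had levels of 1.60, 1.43 and 1.80 in G-CSF blood, 1.38, 0.86 and 1.22 in CWHM-823+tGro-b blood, 1.24, 0.36 and 1.30 in AMD3100 blood and 0.66, 0.58 and 1.37 in PBS marrow. Every G-CSF array was higher than every array of the other groups. Its difference between G-CSF blood and AMD3100 blood was 0.64 ± 0.31 log2 (limma, adjusted p = 0.118, and 0.0225 with the block). Against PBS marrow, Pdia3 was 0.82 ± 0.27 higher in G-CSF blood (adjusted p = 0.143, and 0.0356 with the block) and Pdia4 0.74 ± 0.31 higher (0.225, and 0.0392 with the block). Both blocked calls were lost without any 1 G-CSF or marrow array or CWHM-823+tGro-b array 2.

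Calr (soluble) and Canx (membrane-bound) are the lectin chaperones of glycoproteins. Calr had levels of 3.73, 3.10 and 3.33 in G-CSF blood, 3.28, 2.56 and 2.99 in CWHM-823+tGro-b blood, 2.44, 2.06 and 2.57 in AMD3100 blood and 2.29, 2.12 and 2.73 in PBS marrow. G-CSF arrays lay above AMD3100 and marrow arrays. Calr rose 2.04-fold in G-CSF blood relative to AMD3100 blood (1.03 ± 0.28 log2, limma, adjusted p = 0.0229), and its value relative to PBS marrow was 1.01 ± 0.28 (adjusted p = 0.103, and 0.0138 with the block, lost without G-CSF array 1 or marrow array 1). Canx had levels of 3.20, 2.42 and 3.12 in G-CSF blood, 2.78, 2.31 and 3.02 in CWHM-823+tGro-b blood, 2.30, 2.35 and 2.56 in AMD3100 blood and 2.63, 2.20 and 3.05 in PBS marrow. All groups overlapped for Canx. It differed by 0.51 ± 0.30 log2 between G-CSF blood and AMD3100 blood (limma, adjusted p = 0.188, and 0.0371 with the block).

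Hsp90b1 (GRP94), the Hsp90 of the ER, had levels of 2.45, 2.06 and 1.88 in G-CSF blood, 2.03, 1.52 and 1.61 in CWHM-823+tGro-b blood, 1.62, 1.37 and 1.40 in AMD3100 blood and 1.98, 1.85 and 1.60 in PBS marrow. G-CSF arrays were all higher than AMD3100 arrays, and other groups overlapped. Its difference between G-CSF blood and AMD3100 blood was 0.66 ± 0.24 log2 (limma, adjusted p = 0.0540, and 0.00553 with the block). With all arrays, the members of the branch that passed in none of the 6 comparisons were Dnajb9 (ERdj4), Dnajc3 (p58IPK) and Edem1. Levels were 0.47 to 1.68 for Dnajb9, -2.12 to -1.34 for Dnajc3 and -3.48 to -1.65 for Edem1, which marks misfolded glycoproteins for degradation. Dnajb9 was 0.75 log2 higher in CWHM-823+tGro-b blood than in AMD3100 blood. It passed there with the block and without marrow array 3 (limma, adjusted p = 0.0448). In that setting, added after the data were seen, 17.1% of all genes passed. With all arrays, the second Dnajb9 probe differed by 1.098 between these groups.

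ATF6 acts with the factor NF-Y at the ER stress element, written here as CCAAT and CCACG with 9 bases between them. These letters were found on either strand in 0.119% of the 32851 windows and in those of 6 of the 33 members with a window, all of them ER chaperones: Calr, Canx, Dnajc3, Hsp90b1, Hspa5 and Pdia6. Of these 6, 3 (Calr, Hspa5 and Pdia6) rose in G-CSF blood relative to AMD3100 blood and 5 with the block (Canx and Hsp90b1 as well), where 12.2% and 22.3% of all genes rose. The related element, ATTGG and CCACG with 1 base between them, stood in 0.0365% of windows and in that of Herpud1 alone among members. TGACGTGG, the UPR element bound by XBP1 and ATF6, stood in 0.676% of windows and in no member's window, which says only that these letters are not there. Shown are the stretches of Hspa5 (chr2:34772005-34772063, plus strand), Pdia6 (chr12:17266471-17266529, plus strand), Calr (chr8:84847055-84847113, minus strand) and Herpud1 (chr8:94386306-94386397, plus strand), which carry the matches in members that rose, and those of Canx (chr11:50325780-50325838, minus strand) and Dnajc3 (chr14:118937807-118937865, plus strand), which carry it in a member that passed only with the block and in one that passed in no comparison. Capitals mark the matches, and in Herpud1 the first capitals are a match of TGATGNAAN, described with the integrated stress genes.

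Hspa5: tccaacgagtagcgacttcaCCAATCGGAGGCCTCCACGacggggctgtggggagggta
Pdia6: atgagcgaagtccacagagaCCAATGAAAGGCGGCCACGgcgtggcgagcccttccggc
Calr: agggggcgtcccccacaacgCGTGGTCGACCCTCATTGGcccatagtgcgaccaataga
Herpud1: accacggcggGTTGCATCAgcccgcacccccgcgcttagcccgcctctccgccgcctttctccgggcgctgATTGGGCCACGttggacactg
Canx: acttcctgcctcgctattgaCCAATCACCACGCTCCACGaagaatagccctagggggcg
Dnajc3: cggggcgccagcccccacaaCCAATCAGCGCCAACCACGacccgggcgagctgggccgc

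Among the 4 ER stress sensors and their factors, Xbp1 rose and the sensors did not pass. Xbp1, the factor whose RNA IRE1 splices, had levels of 2.34, 2.00 and 2.15 in G-CSF blood, 1.51, 1.1 and 0.90 in CWHM-823+tGro-b blood, 0.67, 0.06 and 0.72 in AMD3100 blood and 0.84, 0.37 and 0.55 in PBS marrow. G-CSF arrays lay above all other arrays, CWHM-823+tGro-b arrays came next with no overlap, and AMD3100 blood and marrow overlapped. Xbp1 rose 3.21-fold in G-CSF blood relative to AMD3100 blood (1.68 ± 0.26 log2, limma, adjusted p = 0.00513) and 2.98-fold relative to PBS marrow (1.57 ± 0.26, adjusted p = 0.0104). Relative to CWHM-823+tGro-b blood it was 0.99 ± 0.26 log2 higher with an adjusted p of 0.178, and 0.0291 with the block, the one member so called in that comparison. The blocked call held without marrow array 3 at 0.0425, and was lost when any G-CSF array, any CWHM-823+tGro-b array or marrow array 1 or 2 was left out. Its probe lies at chr11:5425816-5425875 (mm9), and spliced and unspliced forms were not measured apart.

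Eif2ak3, which encodes PERK, had levels of -0.13, -0.22 and 0.10 in G-CSF blood, -0.24, -0.65 and -0.81 in CWHM-823+tGro-b blood, -1.09, -0.85 and -0.35 in AMD3100 blood and -0.07, -0.36 and -0.06 in PBS marrow. G-CSF arrays were higher than the arrays of both other blood groups and overlapped marrow. Its difference between G-CSF blood and AMD3100 blood was 0.68 ± 0.26 log2 (limma, adjusted p = 0.0599, and 0.0252 with the block). Ern1, which encodes IRE1, ranged from -1.84 to -0.91 and Atf6 from -3.26 to -2.30, and both passed in no comparison. In G-CSF blood relative to AMD3100 blood, Ern1 differed by -0.42 ± 0.26 and Atf6 by -0.33 ± 0.26 on the log2 scale.

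Of the 6 tested members of the integrated stress response, 0 rose and 1 fell in G-CSF blood relative to AMD3100 blood, where 12.2% of all genes rose and 19.5% fell. With the block 2 rose and 2 fell, where 22.3% of all genes rose and 40.3% fell. The median log2 difference was 0.45. Atf4, the factor whose translation the pathway favours, had levels of 4.09, 3.87 and 3.84 in G-CSF blood, 3.91, 3.79 and 3.89 in CWHM-823+tGro-b blood, 3.23, 3.16 and 3.40 in AMD3100 blood and 3.92, 3.96 and 3.08 in PBS marrow. Both G-CSF and CWHM-823+tGro-b blood exceeded AMD3100 blood on every array, and marrow array 3 was the lowest of all. Atf4 differed by 0.67 ± 0.26 log2 between G-CSF blood and AMD3100 blood (limma, adjusted p = 0.0633, and 0.0272 with the block). The second Atf4 probe, above background on all 12 arrays, differed by 0.55 there. Relative to PBS marrow that probe was 0.84 higher in G-CSF blood and 0.29 higher in AMD3100 blood, beside 0.28 and -0.39 for the one used. Asns, the asparagine synthetase gene that ATF4 induces, had levels of 0.46, 0.07 and 0.53 in G-CSF blood, 0.65, 0.29 and 0.99 in CWHM-823+tGro-b blood, -0.28, -0.27 and -0.35 in AMD3100 blood and -0.09, -0.12 and 0.95 in PBS marrow. AMD3100 arrays were lower than all others, and marrow array 3 stood apart from the other marrow arrays. Asns differed by 0.65 ± 0.31 log2 in G-CSF blood (limma, adjusted p = 0.113, and 0.0358 with the block) and by 0.94 ± 0.31 in CWHM-823+tGro-b blood (0.170, and 0.0356 with the block), each relative to AMD3100 blood.

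Sesn2, which encodes sestrin 2, a stress-induced inhibitor of mTORC1, ran the other way. Its levels were 1.01, 1.30 and 1.48 in G-CSF blood, 1.36, 1.52 and 1.49 in CWHM-823+tGro-b blood, 2.02, 1.86 and 1.88 in AMD3100 blood and 1.33, 1.43 and 1.68 in PBS marrow. All AMD3100 arrays were higher than all other arrays. Sesn2 was 1.57-fold lower in G-CSF blood than in AMD3100 blood (-0.65 ± 0.21 log2, limma, adjusted p = 0.0391), a call lost with normexp correction (0.0723) and with only the 2 compared groups (0.0926). Trib3, a pseudokinase that restrains the response, had levels of -0.79, -0.11 and -1.53 in G-CSF blood, -0.57, 0.08 and -0.38 in CWHM-823+tGro-b blood, -0.31, 0.25 and -0.53 in AMD3100 blood and 0.18, 0.24 and -0.13 in PBS marrow. Groups overlapped, with G-CSF arrays reaching lowest. Trib3 differed by -0.61 ± 0.36 log2 between G-CSF blood and AMD3100 blood (limma, adjusted p = 0.177, and 0.0376 with the block) and by -0.90 ± 0.36 relative to PBS marrow (0.203, and 0.0298 with the block). The blocked call relative to marrow was lost without G-CSF array 1 or 3 or marrow array 1 or 3.

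Ppp1r15a (GADD34), the phosphatase subunit that reverses eIF2alpha phosphorylation, ranged from 1.41 to 3.14, and Ddit3 (CHOP), a factor of lasting ER stress, from -3.24 to -1.32. Neither passed in any of the 6 comparisons, with the slide as a block or without it, except that Ddit3 was lower in AMD3100 blood than in PBS marrow with the block and without marrow array 3 (-1.17 log2, limma, adjusted p = 0.0430). In that setting, added after the data were seen, 14.4% of all genes passed. Chac1, an enzyme that breaks down glutathione, was above background on 2 of 12 arrays, 1 of AMD3100 blood and 1 of PBS marrow, and was not tested. The letters TGATGNAAN, with N for any base, a form of the element that ATF4 and C/EBP factors bind, stood on either strand in 3.95% of windows, and in those of Asns, Chac1, Herpud1 and Trib3 among members. The Asns stretch (chr6:7693210-7693246, minus strand) shows the match in capitals, as the best known target of ATF4 in the set.

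Asns: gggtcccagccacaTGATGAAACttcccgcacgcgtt

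Set side by side, the branches had different shares of calls in G-CSF blood relative to AMD3100 blood. Upward calls came to 5 of 10 cytosolic chaperones, 2 of 3 mitochondrial chaperones, 5 of 11 ER members, 1 of 4 sensors and 0 of 6 integrated stress genes, against 12.2% of all genes tested. The differences between branches were not tested. Median log2 differences were 0.63, 0.91, 0.66, 0.18 and 0.45 in that order, and the sensors' median was 0.50 with quantile normalization. In CWHM-823+tGro-b blood relative to AMD3100 blood the medians were 0.58 for cytosolic, 0.72 for mitochondrial and 0.30 for ER chaperones, -0.10 for sensors and 0.39 for integrated stress genes, with 0 calls in each and 5, 2, 3, 1 and 1 upward calls with the block, where 8.13% of all genes rose. In G-CSF blood relative to PBS marrow they were 0.62 for cytosolic, 0.39 for mitochondrial and 0.74 for ER chaperones, 0.02 for sensors and -0.05 for integrated stress genes. The medians of all genes in these comparisons were -0.39, -0.17 and -0.27.

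**Figure D3:**
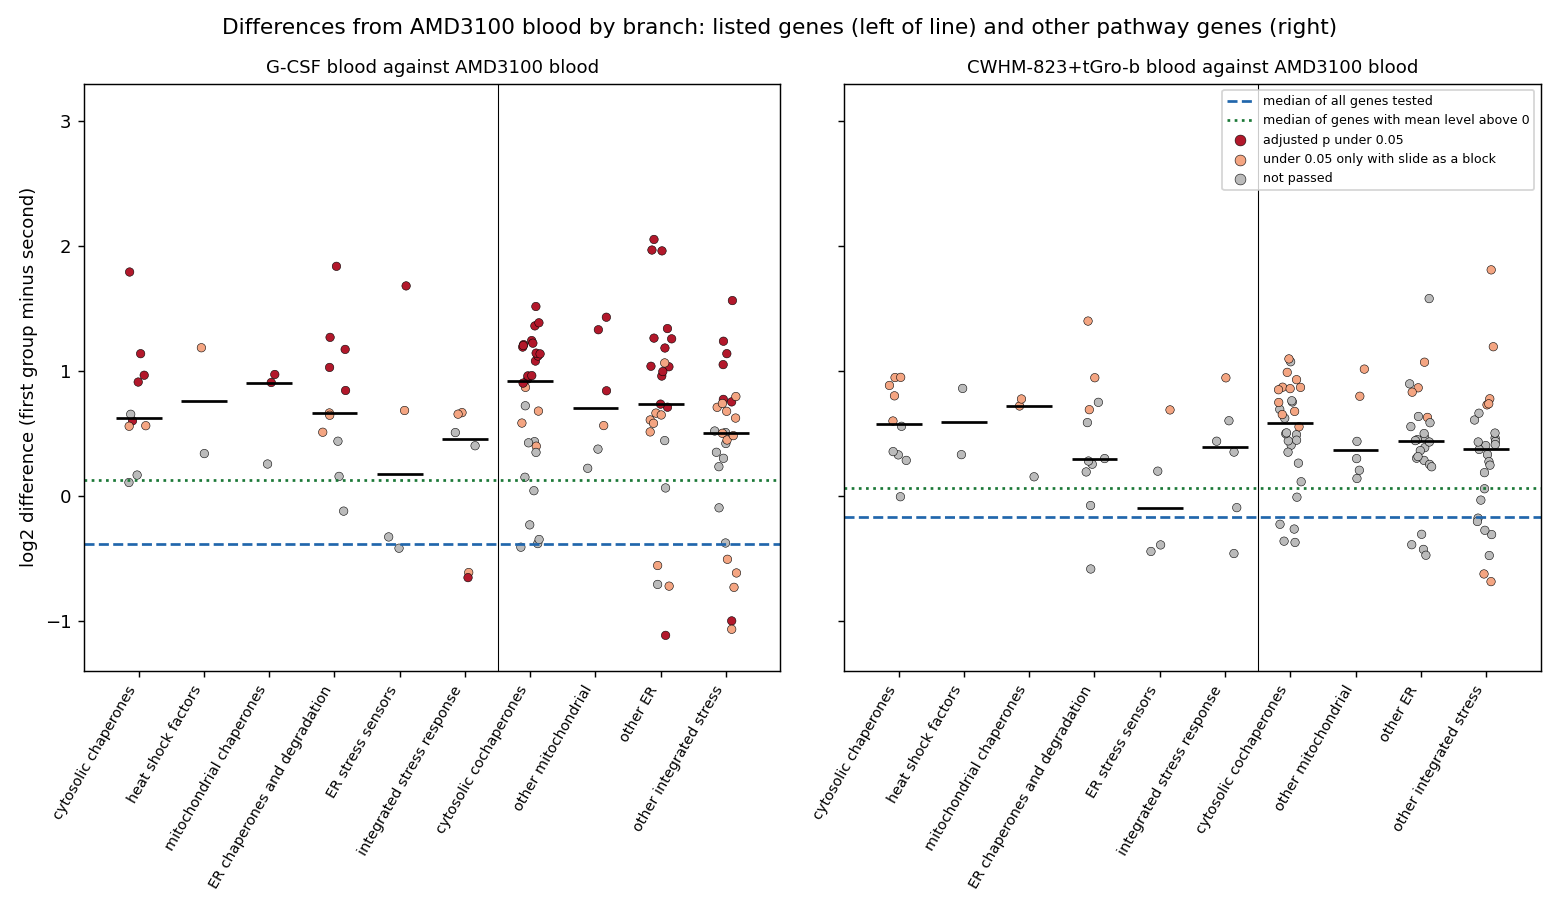
Log2 differences of single genes by branch for G-CSF blood and CWHM-823+tGro-b blood, each against AMD3100 blood, with the members left of the line and other genes of the same pathways right of it. The dashed line is the median of all 23763 genes tested and the dotted line that of the 8453 genes with a mean level above 0; most chaperone genes lie above both.

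Other genes of these pathways, listed by function, were counted in G-CSF blood relative to AMD3100 blood, where 12.2% of all genes rose and 19.5% fell (22.3% and 40.3% with the block). Of 30 tested cytosolic cochaperones, 16 rose and 0 fell (20 and 0 with the block; median 0.92). The smallest p belonged to Hspa4l, a further Hsp110, at 1.52 ± 0.30 log2 (limma, adjusted p = 0.00916), beside Cdc37, which loads kinases onto Hsp90, at 1.39 ± 0.27 (0.00916), and Stub1, the ubiquitin ligase CHIP, at 1.22 ± 0.26 (0.0110). Of 6 other mitochondrial chaperones and proteases, 3 rose (median 0.70), namely Dnaja3 by 1.43 ± 0.25, the protease gene Lonp1 by 1.33 ± 0.27 and Hscb by 0.84 ± 0.30. Of 25 other ER genes, 13 rose and 1 fell (19 and 3 with the block; median 0.73). P4hb, the founding disulfide isomerase, rose by 2.05 ± 0.40, Uggt1, the sensor of glycoprotein folding, by 1.96 ± 0.37, and Sdf2l1 by 1.34 ± 0.28, while Derl3 fell, at -1.12 ± 0.25. Of 27 other integrated stress genes, 6 rose and 1 fell (14 and 5 with the block; median 0.50), among them Cebpb, a partner factor of ATF4, at 1.56 ± 0.28, the serine synthesis gene Psat1 at 1.24 ± 0.25 and Atf5 at 1.14 ± 0.24, with Gpt2 lower at -1.0 ± 0.33.

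Fewer of these genes passed against marrow. Atf3, a factor of the integrated stress response that is also an early response gene, rose by 3.63 ± 0.41 log2 in G-CSF blood, by 4.93 ± 0.41 in CWHM-823+tGro-b blood and by 3.12 ± 0.41 in AMD3100 blood relative to PBS marrow (limma, adjusted p = 0.000780, 8.62e-05 and 0.00467). In G-CSF blood relative to PBS marrow, Cebpb (1.69 ± 0.28), Sdf2l1 (1.37 ± 0.28) and P4hb (1.77 ± 0.40) rose as well. Dnaja3 fell in AMD3100 blood relative to PBS marrow, at -1.23 ± 0.25 (limma, adjusted p = 0.0347). Of the 30 cochaperones 0 passed in G-CSF blood relative to PBS marrow and 15 rose with the block, where 7.69% of all genes rose, with a median of 0.60. Over all genes, the 4754 blocked calls in that comparison came to 500 without marrow array 1, 524 without G-CSF array 1 and 566 without G-CSF array 3.

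In CWHM-823+tGro-b blood relative to AMD3100 blood, 29 of the 36 members had a difference above 0, the median was 0.40, and 12 rose with the slide as a block, where 8.13% of all genes did. These were Hspa4, Hsph1, Dnaja1, Dnajb1, Bag3, Hspd1, Hspe1, Hspa5, Pdia6, Herpud1, Xbp1 and Asns. Herpud1 stood 1.40 ± 0.43 higher on the log2 scale (limma, adjusted p = 0.157, and 0.0112 with the block), Hspa5 0.95 ± 0.25 higher (0.132, and 0.0242 with the block) and Dnajb1 0.95 ± 0.28 higher (0.148, and 0.0226 with the block). The 12 differences ran from 0.60 to 1.40 and their blocked adjusted p from 0.0112 to 0.0418. None of the 12 was called without CWHM-823+tGro-b array 1, and only Herpud1 was without CWHM-823+tGro-b array 2 or AMD3100 array 1. The 14 members whose arrays lay wholly above those of AMD3100 blood compare with 10.9% of all genes tested, and the 2 wholly below with 13.3%.

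Between G-CSF blood and CWHM-823+tGro-b blood, the 95% interval of the log2 difference was narrow enough to bound some members. For Dnajb1 it ran from -0.59 to 0.62, for Hspa4 from -0.45 to 0.45, for Hsph1 from -0.45 to 0.83 and for Hspa5 from -0.31 to 0.77, without adjustment for the number of genes. For Bag3 the difference was 0.91 ± 0.28 (interval 0.30 to 1.52; limma, adjusted p = 0.268, and 0.0627 with the block), and for Pdia6 0.58 ± 0.25 (interval 0.04 to 1.12). A missed threshold does not show that these treatments act alike.

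None of the 14 members called in G-CSF blood relative to AMD3100 blood overlapped between these groups. Their shared direction on all 3 slides was thus fixed in advance and adds no support. The differences on slides 1, 2 and 3 were 2.20, 1.84 and 1.34 log2 for Bag3, 1.66, 1.94 and 1.43 for Xbp1 and 1.96, 1.59 and 1.96 for Herpud1. Those of Pdia6 were 1.40, 1.25 and 1.15, those of Hspa5 1.24, 1.14 and 1.14 and those of Sesn2 -1.01, -0.57 and -0.39. Hspa5 thus differed by nearly the same amount on each slide, while Bag3 and Sesn2 differed most on slide 1. In CWHM-823+tGro-b blood relative to AMD3100 blood, Hspa5 differed by 1.03, 0.94 and 0.87 and Xbp1 by 0.84, 1.04 and 0.18, smallest on slide 3.

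**Figure D4:**
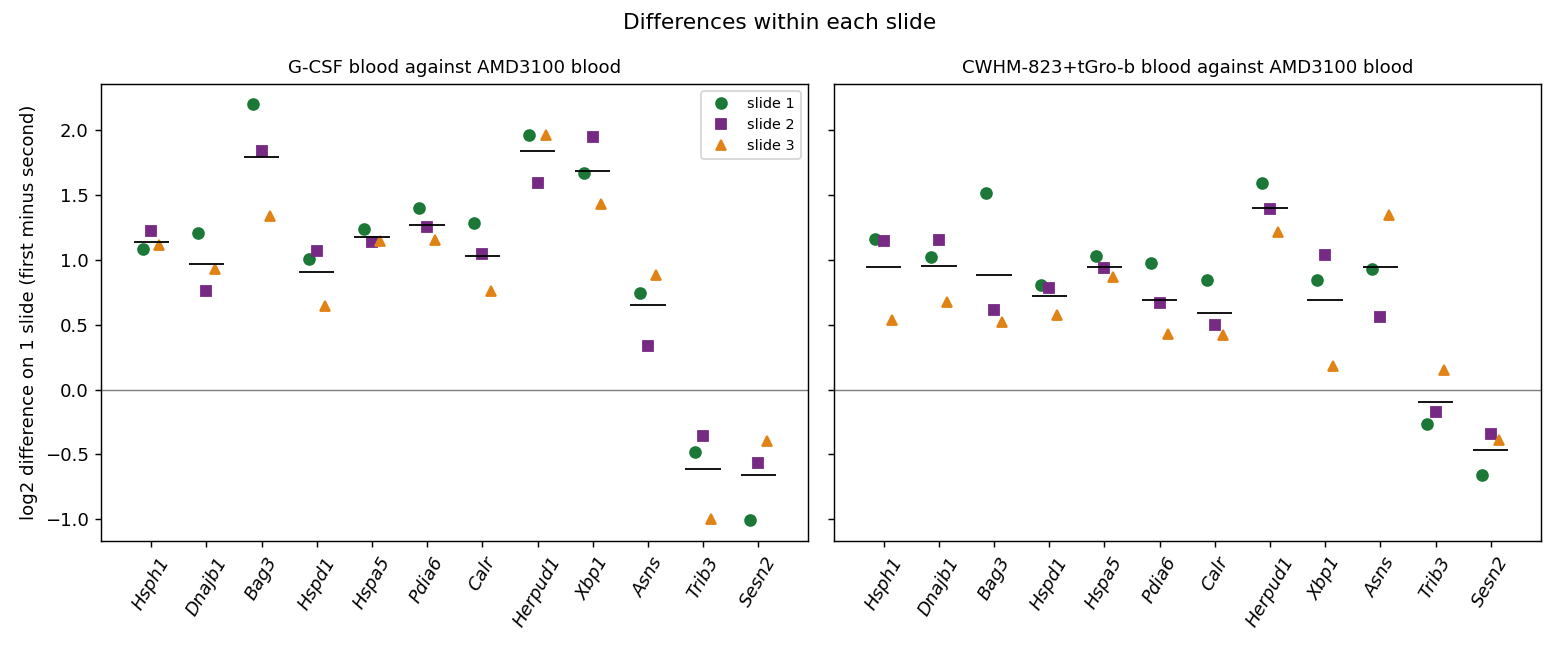
Log2 differences on each slide (symbols) and their mean (line) for 12 members, in G-CSF blood against AMD3100 blood and in CWHM-823+tGro-b blood against AMD3100 blood. Sesn2 lies below 0 and the chaperone genes above 0 in both panels, with Bag3 most spread.

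Leaving out single arrays separated calls that held from calls that were lost in G-CSF blood relative to AMD3100 blood. Bag3, Hspa5, Pdia6 and Xbp1 passed in all 12 refits, with highest adjusted p of 0.0269, 0.0490, 0.0382 and 0.0284 (limma). The refits keep the same probe of a gene, and the Pdia6 call was lost with the mean of its probes (limma, adjusted p = 0.0558). When G-CSF array 1, G-CSF array 3 or AMD3100 array 2 was left out, Bag3, Hspa5, Pdia6 and Xbp1 alone passed. Of all genes, 5.97%, 9.33% and 10.9% passed in these refits. Without AMD3100 array 1, 7 members passed, as Dnaja1, Herpud1 and Hsph1 did as well, where 12.4% of all genes passed. Hspe1, Hspa4 and Sesn2 were also lost without marrow array 2, Hspa4 and Sesn2 without AMD3100 array 3, and Hspa4 alone without G-CSF array 2, marrow array 3 or any CWHM-823+tGro-b array. The highest adjusted p was 0.0551 for Herpud1, 0.0737 for Hsph1, 0.0971 for Dnaja1, 0.0955 for Calr, 0.105 for Hspd1, 0.110 for Dnajb1, 0.116 for Pdia3, 0.132 for Hspe1, 0.135 for Hspa4 and 0.148 for Sesn2. In G-CSF blood relative to PBS marrow, Xbp1 was lost without G-CSF array 1 and without marrow array 2 (highest adjusted p 0.0641). Hsph1 held in 3 of 12 refits and was lost, at up to 0.194, in all others, those without G-CSF array 1 or 3, any marrow array, AMD3100 array 1 or 3 or CWHM-823+tGro-b array 2 or 3. Of the 24 calls made with the block in G-CSF blood relative to AMD3100 blood, 15 held in all 12 blocked refits, among them those of Hspa8 and Hsp90b1, and 9 (Asns, Atf4, Canx, Eif2ak3, Hsf1, Hsp90aa1, Hspa4, Pdia4 and Trib3) were lost in at least 1. Of the 14 in G-CSF blood relative to PBS marrow, those of Dnaja1, Hsph1 and Xbp1 held in all 12 and the other 11 were lost in at least 1. With all arrays, 62.6% and 20% of all genes passed in the blocked fits of these comparisons, in that order. The share of all genes that held in every refit was not worked out.

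Other values moved with the same groups, and their part in the results was not tested. Over all genes, 12.2% rose and 19.5% fell in G-CSF blood relative to AMD3100 blood, and 40.3% fell there with the block. Relative to PBS marrow, 1.75% of all genes passed in G-CSF blood (1.14% upward), 0.375% in CWHM-823+tGro-b blood and 1.41% in AMD3100 blood. Summed levels of the 5 erythroid markers on the array were 7.23 to 7.78 in G-CSF blood, 9.75 to 17.1 in CWHM-823+tGro-b blood, 1.77 to 2.06 in AMD3100 blood and 1.47 to 2.71 in PBS marrow. Of the 4 tested, Hba-a1 rose in G-CSF blood relative to AMD3100 blood and Klf1 was lower only with the block (-1.36 log2; median of the 4 -0.08), and relative to PBS marrow Hba-a1 rose and Klf1 fell. The 5 dendritic markers summed to 24.7 to 35.9, 37.7 to 63.0, 45.7 to 64.1 and 33.5 to 49.6 in the same order of groups, and 3 of 4 tested (H2-Aa, H2-Ab1 and Cd74) fell in G-CSF blood relative to AMD3100 blood. The 10 immediate early genes summed to 80.1 to 140.4, 126.3 to 192.9, 71.7 to 109.6 and 35.1 to 49.9. Of these 10, 3 rose in G-CSF blood relative to AMD3100 blood and 5 relative to PBS marrow. Neutrophil markers, 7 on the array, summed to 1.70 to 2.26 in G-CSF blood, 1.37 to 2.28 in CWHM-823+tGro-b blood, 2.17 to 3.13 in AMD3100 blood and 2.12 to 32.7 in PBS marrow, and 0 of 6 tested passed in G-CSF blood relative to AMD3100 blood. The 6 B and plasma cell markers summed to 3.61 to 4.01 in G-CSF blood, 3.84 to 6.48 in CWHM-823+tGro-b blood, 3.75 to 4.28 in AMD3100 blood and 3.24 to 3.75 in PBS marrow, and 2 of 5 tested (Cd79a and Sdc1) fell in G-CSF blood relative to AMD3100 blood, with a median of -0.94. The 5 T cell markers summed to 2.01 to 5.44, 2.71 to 5.96, 5.04 to 8.26 and 2.83 to 5.42 in the same order, and 1 of 3 tested (Cd3e) fell in G-CSF blood relative to AMD3100 blood, with a median of -1.36. The 4 mast cell and basophil markers summed to 4.46 to 5.6, 4.23 to 6.25, 3.11 to 12.4 and 1.44 to 2.70. Of these 4, Fcer1a rose in G-CSF blood relative to AMD3100 blood, and relative to PBS marrow Hdc rose in all 3 blood groups and Cpa3 in G-CSF blood and AMD3100 blood. No monocyte (4 tested) or platelet (3 tested) marker passed in G-CSF blood relative to AMD3100 blood, and 1 of each list (Adgre1 and Pf4) was lower with the block. Pf4 fell in G-CSF blood relative to PBS marrow. Of the 6 LSK markers, Ly6a and Cd34 rose and Flt3 fell in G-CSF blood relative to AMD3100 blood. No gene of these lists was below background on all 12 arrays.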

How the data were processed

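Per the labels, RNA was amplified with the WTA2 kit and labelled with Kreatech ULS Cy5, and 12 Agilent arrays were hybridised, 3 in each of 4 groups. Intensities were extracted by the authors with Agilent Feature Extraction 11.5.1.1, per the file headers, as processed signals without scaling between arrays. A further deposited table holds normalized intensities of 30354 probes, whose method is not given in the sources used here.

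Outlier spots were left out of 43020 non-control spots and spots of a probe averaged (39429 probes, 199 of them missing on an array). The log2 processed signal was scaled to the 75th percentile. A probe was kept if some group had it above background on all 3 arrays, and 1 per gene name was used, for 23763 genes. limma 3.58.1 in R 4.3.3 (version 1.17.8 of data.table; lmFit and eBayes, 1 mean per group, 12 arrays, 8 residual and 3.8 prior degrees of freedom) gave 2-sided tests with Benjamini-Hochberg adjustment over all genes within a comparison. Intervals are 95%. The script was tested on simulated data.

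Replicate number and slide were 1 factor. Deviations from the group means had correlations across genes of 0.261 to 0.616 in the 18 array pairs of equal number, and a median of -0.241 in 36 pairs of unequal number, so the numbers pair the samples; the pairing comes from the slide in the file headers and from these values.

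Members and lists were chosen with earlier results of these data known. By the rule for named genes, members passing in any comparison, with or without the block, were given array by array, at most 8 per branch by smallest p, and other pathway genes up to 3 per list and comparison. Probe positions are the scanner output's (mm9), without exon annotation; promoters are from RefSeq (GRCm38.p6), with a window for 33 of the 39 members. Alternatives were quantile normalization, normexp correction (offset 50), the authors' normalized values, other filters on dim probes, the slide block, a trended robust prior, the compared groups alone, the mean of a gene's probes and each array left out. The block without marrow array 3 and the limit on mean level were added after the data were seen.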

Additional observations from a re-analysis of the deposited data

How the results depend on the processing

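Counts of members that passed moved with the slide block, which pairs arrays of equal number, with the groups in the fit and with single arrays. With the replicate block, 14 members passed in G-CSF blood against PBS marrow (2 without it), 2 in AMD3100 blood against PBS marrow, 2 in CWHM-823+tGro-b blood against PBS marrow, 24 in G-CSF against AMD3100 blood (14 without it), 1 in G-CSF against CWHM-823+tGro-b blood and 12 in CWHM-823+tGro-b against AMD3100 blood (each 0 without it, apart from the pair stated). With quantile normalization and the block together these counts were 11, 3, 2, 25, 1 and 14, where 11%, 18.1%, 1.12%, 52.1%, 1.53% and 18.6% of all genes passed. With the block but without marrow array 3 the counts were 6, 4, 0, 24, 1 and 14, where 7.12%, 14.4%, 0.589%, 62.9%, 2% and 17.1% did. Leaving out any 1 array from the blocked fit gave 3 to 14, 0 to 4, 0 to 2, 15 to 24, 0 to 2 and 0 to 14.

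Without the block, the count in G-CSF blood against PBS marrow was 1 with quantile normalization, the authors' table or dim probes kept. There 1.47%, 0.97% and 1.02% of all genes passed. It was also 1 with only the groups compared or probes of a gene averaged, where 0.926% and 2.01% of all genes passed. Normexp correction and only probes above background on all arrays each gave 3, where 1.46% and 2.33% did. A trended robust prior gave 6, where 2.38% did. The count in G-CSF against AMD3100 blood was 6 with only the groups compared, where 16.3% of all genes passed. Leaving out 1 array gave 0 to 3 and 4 to 15 in these comparisons. Among all genes, G-CSF against AMD3100 blood had 7523 calls, 3868 with only the groups compared, 14887 with the block and 1418 to 10313 with 1 array left out; G-CSF blood against PBS marrow had 417, 220 with only the groups compared, 238 with the authors' table, 4754 with the block and 181 to 763 with 1 array left out. AMD3100 blood against PBS marrow had 336 calls (743 with quantile normalization, 162 with normexp correction, 173 with dim probes kept, 144 with only the groups compared, 3108 with the block; 69 without marrow array 1, 75 and 205 without marrow arrays 2 and 3, 105 and 166 without AMD3100 arrays 1 and 2, and 217 without G-CSF array 1), CWHM-823+tGro-b against AMD3100 blood 37 (3 to 106 over the alternatives without the block, 3935 with it), G-CSF against CWHM-823+tGro-b blood 144 (89 with the authors' table, 45 with only the groups compared, 526 with the block, 67 to 194 with 1 array left out) and CWHM-823+tGro-b blood against PBS marrow 89 (259 with the block, 53 to 89 with 1 array left out). Of all calls in G-CSF against AMD3100 blood 38.5% were upward, 56.1% with quantile normalization and 55.2% with the authors' table; in G-CSF blood against PBS marrow 65.2% were, 80.3% with quantile normalization, 82.4% with the authors' table and 81.3% with normexp correction.

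Of single members, Hsp90aa1 turned direction with the mean of its probes (-0.031). In G-CSF against AMD3100 blood, calls lost with quantile normalization and with the authors' table were Dnajb1, Hspa4 and Hspe1, those lost with normexp correction Hspa4 and Sesn2, and 8 were lost with only the groups compared. Arrays that carry dim probes limit Hspa1a, Hspb1, Hsf1 and Chac1. The causes were not tested.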
